A study of Homo sapiens with 8 samples.

Results

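Transcripts of 8 integrin subunits (ITGA2, ITGA3, ITGA6, ITGAV, ITGB1, ITGB4, ITGB5 and ITGB6) and of 1 laminin chain (LAMA5) were followed in 2 human colorectal cancer cell lines with and without siRNA against PRDX2, the gene of the peroxide-reducing enzyme peroxiredoxin II. The genes were chosen by symbol, and 9 of 9 were found among the 25192 genes of the files. HT29 cells, grown in McCoy's 5A medium, and SW480 cells, grown in RPMI medium, each with fetal bovine serum, received either control siRNA (siCon) or Prdx2 siRNA (siPrdx2) and were collected after 36 h. Each of the 4 groups, HT29 siCon, HT29 siPrdx2, SW480 siCon and SW480 siPrdx2, held 2 libraries of poly(A) RNA. Both lines are established adenocarcinoma lines that carry APC mutations. The labels call the duplicates repeat experiments but do not say whether they came from separate cultures, so the p-values measure the spread between these libraries only. Which PRDX2 siRNA sequence was used for sequencing is not given in the labels.

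Integrins are cell surface receptors made of 1 alpha and 1 beta chain that anchor cells to the extracellular matrix and signal through focal adhesions. ITGB1 is the shared beta chain of the collagen receptor with ITGA2 and of the laminin receptors with ITGA3 and ITGA6, whereas ITGB4 pairs with ITGA6 alone and links the basement membrane to keratins in hemidesmosomes. ITGAV pairs with ITGB5, a vitronectin receptor chain, and with ITGB6, an epithelial chain whose dimer activates latent TGF-beta. LAMA5 is 1 of the laminin alpha chains of the intestinal basement membrane and forms trimers with LAMB1 or LAMB2 and LAMC1.

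The libraries held between 8857442 and 10164137 expected counts, the read numbers per gene that RSEM estimates, so that 3 counts corresponded to 0.295 to 0.339 CPM, the count scaled to library size. PRDX2 averaged 156.0 CPM in HT29 siCon and 86.0 CPM in HT29 siPrdx2, a log2 fold change of -0.87 ± 0.05 (SE). In SW480 the averages were 219.3 and 67.5 CPM, a log2 fold change of -1.70 ± 0.12. All 10 epithelial markers were detected in HT29 (summed level 12388 to 13774 CPM per library). Their sum was lower in SW480 (6398 to 7538 CPM), and CDX1, a colonic transcription factor, was at no more than 3 counts in any SW480 library. In edgeR 8 of the 10 were lower in SW480 siCon than in HT29 siCon, as 34.2% of all genes were. CDX2 was higher (log2 1.17, adjusted p = 2.08e-05), and KRT19 did not pass (-0.19, adjusted p = 0.083). Of 11 markers of immune, endothelial, stromal and red cells, 6 were at 0 in every HT29 library and 4 in every SW480 library, among them PTPRC, DCN and HBB in both lines. CD68 averaged 23.2 CPM in HT29 siCon and 11.2 CPM in SW480 siCon, COL1A1 4.48 and 21.7, and ACTA2 1.33 and 10.6. Of the 4 tested between the lines in edgeR, 3 were higher in SW480 siCon, as 39% of all genes were. These were COL1A1 (log2 2.28), ACTA2 (2.99) and PDGFRB (6.07), while CD68 was lower (-1.04). In HT29, CD68 fell under PRDX2 siRNA (-0.40, edgeR adjusted p = 0.021) but did not pass in DESeq2. The summed level of those 11 markers was 20.3 to 30.3 CPM in HT29 and 42.2 to 55.3 CPM in SW480.

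One pair of duplicates stood apart. The chi-square statistic per degree of freedom between duplicates was 1.42 in HT29 siCon, 1.68 in HT29 siPrdx2 and 2.08 in SW480 siPrdx2 but 10.6 in SW480 siCon. In SW480 siCon the gap between replicate 2 and replicate 1 rose with the GC content of the transcript, with a Spearman rho of 0.774 across genes, which are not independent replicates. The same slope ran through the 9 genes here. LAMA5, with the highest transcript GC content (66.4%), was 0.83 higher on the log2 scale in replicate 2 than in replicate 1, and ITGAV, with the lowest (33.5%), was 0.28 lower. Over the 9 genes Pearson's r of this gap with GC content was 0.939 in SW480 siCon, and was 0.487 in SW480 siPrdx2, 0.858 in HT29 siCon and 0.407 in HT29 siPrdx2, where the gaps themselves were small. The 9 points of a group share its 2 libraries, so these are descriptions. The SW480 change of each of the 9 genes is therefore given also without each SW480 siCon library and after a correction for GC content, and the part of library composition in those changes was not tested.

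**Figure D1:**
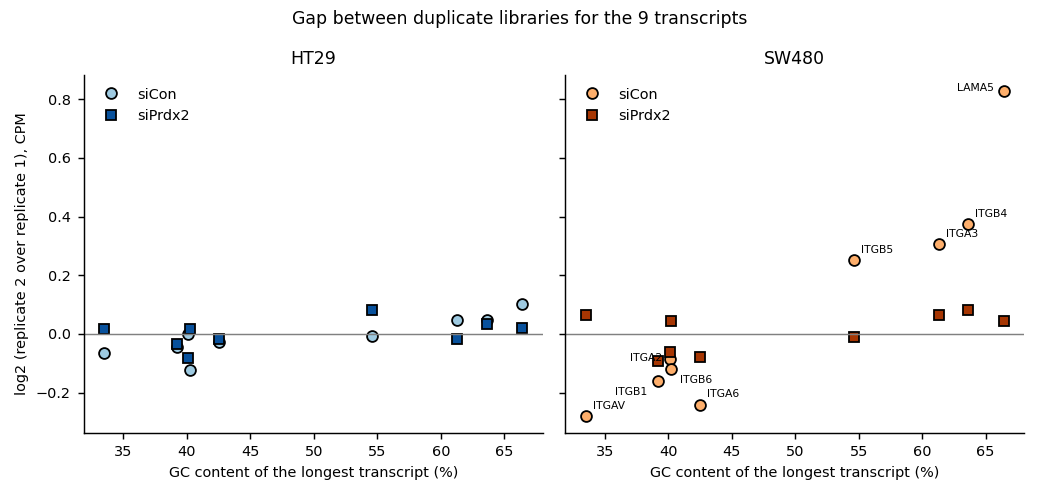
Gap between the 2 duplicate libraries of each group (y axis, log2 of replicate 2 over replicate 1 in CPM) against the GC content of each gene's longest transcript (x axis, %) for the 9 genes, HT29 on the left and SW480 on the right. In SW480 siCon the gap runs from -0.28 for ITGAV to 0.83 for LAMA5, whereas in the other 3 groups it stays between -0.12 and 0.10.

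The first comparison asked how the 2 lines differ in these receptors under control siRNA. SW480 had less of 7 of the 9 genes, most of all ITGB6 and ITGB4, and more of ITGAV. In edgeR, by its quasi-likelihood test, 8 of 9 genes passed an adjusted p of 0.05, 7 lower and 1 higher in SW480. The background was high: of 14772 genes tested, 73.2% differed between the lines, 34.2% lower and 39% higher in SW480. The median log2 difference was -0.69 over the 9 genes and 0.06 over all genes. Each line has its own libraries, so that the line and any batch in which it was prepared cannot be told apart.

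ITGB6 had the largest difference. It lies on the minus strand of chromosome 2 (chr2:160956178-161056824, GRCh37, the build the authors named as hg19). Its level was 42.6 and 39.1 CPM in the HT29 siCon libraries and 4.57 and 4.21 CPM in the SW480 siCon libraries. The lines did not overlap, and the level was 9.25-fold lower in SW480 (log2 difference -3.21 ± 0.13, edgeR adjusted p = 1.71e-09). The SW480 values were still well above the level of 3 counts. The 250 bases upstream of the RefSeq start of ITGB6 (GRCh38.p14, chr2:160200273-160200522, minus strand) are shown beside those of ITGA2, the only gene of the 9 that passed as higher in SW480 under PRDX2 siRNA in edgeR, because both genes were higher in HT29 and their upstream sequences are unlike (ITGA2: GRCh38.p14, chr5:52989102-52989351, plus strand). Capitals mark GGGCGG, the GC box bound by SP1-type factors, on either strand.
ITGB6: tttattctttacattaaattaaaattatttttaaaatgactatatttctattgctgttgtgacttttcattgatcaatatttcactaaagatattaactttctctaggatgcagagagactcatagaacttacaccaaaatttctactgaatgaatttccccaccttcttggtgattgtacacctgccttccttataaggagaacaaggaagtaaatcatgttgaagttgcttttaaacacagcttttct
ITGA2: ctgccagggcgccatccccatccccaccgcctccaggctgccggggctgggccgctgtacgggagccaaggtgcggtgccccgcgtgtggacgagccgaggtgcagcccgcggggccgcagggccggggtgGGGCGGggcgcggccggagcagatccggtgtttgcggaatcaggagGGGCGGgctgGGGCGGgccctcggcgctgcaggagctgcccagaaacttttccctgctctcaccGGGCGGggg
The ITGB6 window was 30% G and C, lower than in all but 1.52% of the 35116 upstream windows of the RefSeq table, and held no GC box. The ITGA2 window was 76.4% G and C, above 91.9% of the windows, and held 4 GC boxes. GGGCGG was in 42.6% of all windows. TGACTCA and TGAGTCA, the letters of an AP-1 site, occurred in 4.2% of windows, and CTTTGAT, the core of a TCF/LEF site, in 2.26%. Neither was in any of the 12 windows listed for ITGA2, ITGA6, ITGAV, ITGB1, ITGB5, ITGB6 and LAMA5. The table has entries for 7 of the 9 genes, without ITGA3 and ITGB4.

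ITGB4, the hemidesmosome chain (chr17:73717408-73753899, plus strand), was at 510.7 and 527.8 CPM in HT29 siCon and at 180.4 and 234.0 CPM in SW480 siCon. The 2 groups were far apart, with a log2 difference of -1.32 ± 0.10 (edgeR adjusted p = 3.63e-07). Its only partner ITGA6 (chr2:173292082-173371187, plus strand) was at 484.5 and 475.5 CPM in HT29 siCon and at 455.0 and 385.0 CPM in SW480 siCon. That difference was small, -0.19 ± 0.08 with an adjusted p of 0.048 in edgeR, and did not pass in DESeq2 (-0.18, adjusted p = 0.086) or without any of 7 of the 8 libraries, each left out in turn. In TPM, a level corrected for transcript length and library size, ITGA6 and ITGB4 were about level in HT29 siCon, with ratios of 0.938 and 0.889, while SW480 siCon held more ITGA6 than ITGB4, with ratios of 2.5 and 1.63. All 4 other hemidesmosome genes were lower in SW480 as well (edgeR adjusted p from 8.41e-12 to 0.0132). The differences were -6.04 for COL17A1, the hemidesmosome collagen, -1.41 for CD151, a tetraspanin, -1.09 for DST, dystonin, and -0.53 for PLEC, plectin. The DST value is for the whole gene, so that its epithelial form was not told apart from its other forms.

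ITGB1 (chr10:33176201-33294720, minus strand) was at 779.4 and 754.8 CPM in HT29 siCon and at 451.2 and 403.9 CPM in SW480 siCon. It was thus 1.79-fold lower in SW480 (log2 difference -0.84 ± 0.07, edgeR adjusted p = 5.26e-07). Its collagen-binding partner ITGA2 (chr5:52285170-52390609, plus strand) was at 168.7 and 168.4 CPM in HT29 siCon against 87.8 and 82.8 CPM in SW480 siCon, 1.97-fold lower (-0.98 ± 0.07, adjusted p = 2.58e-07). ITGA3, the laminin receptor chain (chr17:48133332-48167845, plus strand), went the other way in direction but did not pass, at 326.9 and 338.0 CPM in HT29 siCon and 320.0 and 395.9 CPM in SW480 siCon (0.11 ± 0.09, 95% interval -0.09 to 0.31, adjusted p = 0.281). In CPM the SW480 siCon libraries of ITGA3 lay on both sides of the HT29 siCon values. In TPM both lay above them, at 145.6 and 179.3 against 135.6 and 140.3.

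ITGAV (chr2:187454737-187545628, plus strand) was the only member that passed as higher in SW480 in the edgeR fit of all 8 libraries. It was at 162.8 and 155.8 CPM in HT29 siCon and at 291.3 and 239.8 CPM in SW480 siCon, 1.67-fold higher (0.74 ± 0.09, edgeR adjusted p = 1.56e-05). Of its beta partners, ITGB5 (chr3:124480795-124620265, minus strand) was at 383.9 and 382.3 CPM in HT29 siCon and at 295.1 and 351.5 CPM in SW480 siCon (-0.24 ± 0.08, adjusted p = 0.0217), and its call was lost when only the 4 siCon libraries were fitted (edgeR adjusted p = 0.081) or when HT29 siCon replicate 1 or 2 was left out (0.092 and 0.087). Among the 4 beta chains other than ITGB1 that pair with ITGAV (ITGB3, ITGB5, ITGB6 and ITGB8), ITGB6 made up 13.2 and 12.4% of TPM in HT29 siCon and 2.12 and 1.65% in SW480 siCon. ITGB5 made up the rest almost entirely, at 84.3 and 85.4% in HT29 and 96.6 and 97.3% in SW480.

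LAMA5 (chr20:60883011-60942368, minus strand) was at 495.2 and 531.8 CPM in HT29 siCon and at 227.6 and 404.3 CPM in SW480 siCon. Both SW480 libraries were below both HT29 libraries, with a log2 difference of -0.69 ± 0.19 (edgeR adjusted p = 0.0056). The SW480 duplicates differed so widely that the difference was -0.33 without SW480 siCon replicate 1 and -1.18 without SW480 siCon replicate 2. After the GC correction it was -0.86, but that correction also moved the median of all genes to -0.18, against 0.06 without it. On that shifted scale ITGAV was at 0.44, ITGA6 at -0.41 and ITGB5 at -0.48. In the annotation, exons of LAMA5 overlap ADRM1 and a non-coding transcript on the opposite strand, and those of ITGA6, ITGAV and ITGB1 overlap non-coding transcripts. The library kit does not mark strand, so that reads of such overlaps cannot be told apart.

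**Figure D2:**
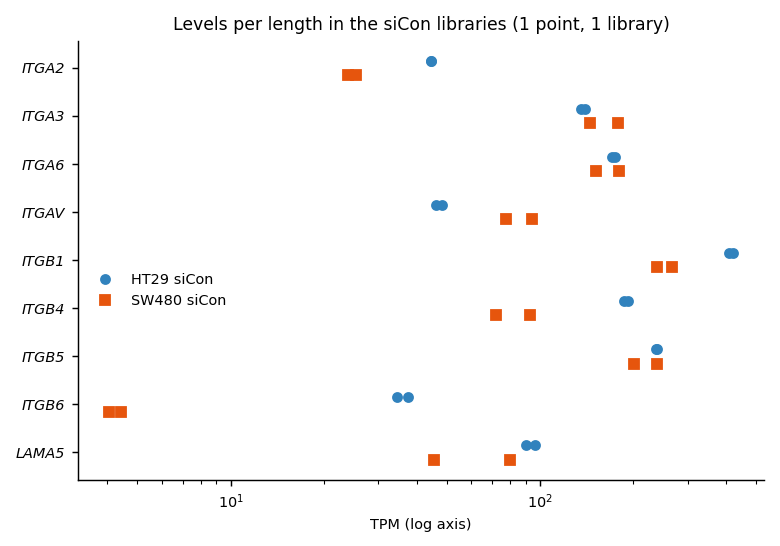
TPM on a log axis (x axis) of the 9 genes in the siCon libraries, 1 point per library, circles for HT29 and squares for SW480. ITGB6 lies near 36.0 TPM in HT29 and 4.23 TPM in SW480, and ITGAV is the gene whose SW480 points lie clearly to the right.

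The order of the levels was compared per length, in TPM. In HT29 siCon, ITGB1 was the highest at 414.9 ± 9.0 TPM (SD, n = 2), followed by ITGB5 (238.3), ITGB4 (189.4), ITGA6 (172.9), ITGA3 (138.0), LAMA5 (93.2), ITGAV (47.1), ITGA2 (44.5) and ITGB6 (36.0). No 2 neighbours in that order overlapped. In SW480 siCon the order was ITGB1 (253.2), ITGB5 (219.9), ITGA6 (166.0), ITGA3 (162.4), ITGAV (85.9), ITGB4 (82.6), LAMA5 (62.6), ITGA2 (24.6) and ITGB6 (4.23). There ITGA6 could not be separated from ITGA3, nor ITGAV from ITGB4, nor ITGB4 from LAMA5. ITGB1 and ITGB5 almost met in SW480 siCon replicate 2, at 238.54 and 238.48 TPM. In SW480 siPrdx2, ITGB5 was at 237.9 and 236.2 TPM and lay above ITGB1, which was at 221.2 and 207.2 TPM. The alpha chains that can pair with ITGB1 summed to 1.08 and 1.12 times the ITGB1 level in HT29 siCon and to 3.16 and 3.42 times it in SW480 siCon. Part of that sum in SW480 was ITGA1, a collagen receptor chain, at 32.9 and 30.0% of the alpha TPM, and ITGA5, the fibronectin receptor chain, at 9.38 and 10.1%, whereas ITGA5 was at no more than 0.318 CPM in any HT29 library.

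The second comparison asked what PRDX2 siRNA did in HT29. ITGB1, ITGB5 and LAMA5 fell by 9.81 to 12.3%, and no member passed as higher. In edgeR 3 of 9 genes passed, each lower, where 17.6% of the 12961 genes tested passed in either direction and 9.82% passed lower. The median log2 fold change was -0.12 over the 9 genes and 0.00 over all genes tested. In bulk RNA, less transcript per cell and fewer cells that carry it cannot be told apart. In HT29 siPrdx2 the epithelial markers KRT8, KRT18 and KRT19 fell (-0.14, -0.26 and -0.28), and KRT20 and CDX2 rose (0.39 and 0.58). The rest of the 10 epithelial markers did not pass in edgeR: CDH17 was at 0.18, EPCAM at 0.03, CDH1 at -0.004, VIL1 at -0.02 and CDX1 at -0.42. CDX2 did not pass in DESeq2. The part of these marker changes in the integrin changes was not tested.

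ITGB1 went from 779.4 and 754.8 CPM in HT29 siCon to 701.8 and 685.9 CPM in HT29 siPrdx2. The groups did not overlap, and the change was -10.0% (log2 -0.15 ± 0.02, edgeR adjusted p = 0.00021). LAMA5 went from 495.2 and 531.8 to 449.5 and 455.5 CPM, again without overlap, a change of -12.3% (log2 -0.19 ± 0.03, adjusted p = 0.00051). ITGB5 went from 383.9 and 382.3 to 337.3 and 357.3 CPM, a change of -9.81% (log2 -0.15 ± 0.03, adjusted p = 0.0046). The 2 siPrdx2 libraries of ITGB5 were 0.08 apart on the log2 scale, and without HT29 siPrdx2 replicate 1 the change was -0.10 with an adjusted p of 0.090. All 3 calls were lost when the spread was estimated over the 8 libraries of both lines in edgeR (adjusted p = 0.379, 0.742 and 0.507 for ITGB1, LAMA5 and ITGB5) and in limma on log2(TPM + 1), where the changes were -0.09, -0.12 and -0.09. DESeq2 kept the 3 calls.

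The other 6 members did not pass in HT29. ITGAV was at 162.8 and 155.8 CPM with siCon and 146.2 and 147.8 CPM with siPrdx2 (-0.12 ± 0.04, edgeR adjusted p = 0.065). ITGA3 was at 326.9 and 338.0 CPM with siCon and 315.8 and 312.1 CPM with siPrdx2 (-0.09 ± 0.03, adjusted p = 0.069). ITGB6 was at 42.6 and 39.1 CPM with siCon and 36.2 and 36.6 CPM with siPrdx2 (-0.17 ± 0.07, adjusted p = 0.125). In each of these the siPrdx2 libraries lay below the siCon libraries. With the GC correction, under which 21% of all genes passed and which left ITGB1, ITGB5 and LAMA5 called, ITGA3 (-0.08, adjusted p = 0.048), ITGB6 (-0.20, adjusted p = 0.0495) and ITGB4 (0.06, adjusted p = 0.039) passed as well. The laminin-receptor pair ITGA6 and ITGB4 was flat in the uncorrected fit: ITGA6 had a change of 0.00 (95% interval -0.06 to 0.06) and ITGB4 of 0.05 (95% interval -0.01 to 0.10). ITGA2 was at 168.7 and 168.4 CPM with siCon and 180.8 and 170.7 CPM with siPrdx2 (0.05 ± 0.04, adjusted p = 0.445). In counts of separation, 6 members had both siPrdx2 libraries below both siCon libraries, which 27.4% of all genes tested had, and 2 had both above, which 29.9% had.

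**Figure D3:**
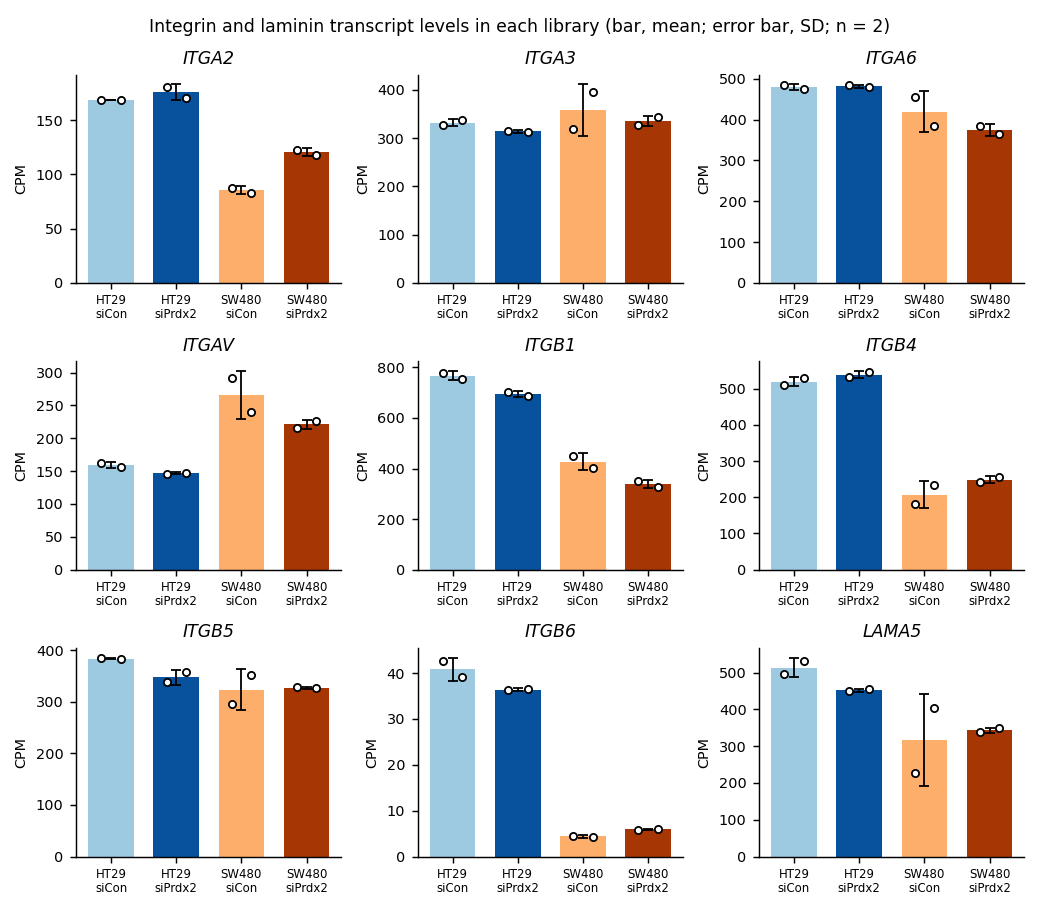
CPM of the 9 genes in each group (bars, mean; error bars, SD; n = 2; open points, the 2 libraries), 1 panel per gene with its own y axis from 0. ITGA2 rises from 85.3 to 120.3 CPM between SW480 siCon and SW480 siPrdx2, and the points of LAMA5 in SW480 siCon lie far apart, at 227.6 and 404.3 CPM.

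The third comparison asked the same in SW480. ITGA2, the collagen receptor chain, rose by 41.2%, and no other member passed. It went from 87.8 and 82.8 CPM in SW480 siCon to 122.9 and 117.8 CPM in SW480 siPrdx2. The groups did not overlap (log2 0.50 ± 0.11, 95% interval 0.26 to 0.74, edgeR adjusted p = 0.0425). Of 14112 genes tested, 3.3% passed in either direction and 1.22% passed higher. The size of the ITGA2 change lay between 0.45 and 0.61 under all alternatives, but its call was lost without the filter on low counts (adjusted p = 0.0513), in limma on log2(TPM + 1) (adjusted p = 0.071), and without SW480 siPrdx2 replicate 1 (0.47, adjusted p = 0.639) or replicate 2 (0.53, adjusted p = 0.594). The change was 0.54 without SW480 siCon replicate 1 and 0.45 without SW480 siCon replicate 2, in fits without any spread between siCon libraries. With the GC correction it was 0.61 and passed (edgeR adjusted p = 0.00027), as 17.5% of all genes did. ITGA2 remained below its HT29 siCon level in every SW480 library.

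ITGB6 was at 4.57 and 4.21 CPM in SW480 siCon and at 5.84 and 6.03 CPM in SW480 siPrdx2. The siPrdx2 values were the higher ones, but the fit did not pass (0.44 ± 0.21, edgeR adjusted p = 0.241), nor did it without SW480 siCon replicate 1 (0.49), without replicate 2 (0.37) or with the GC correction (0.55). ITGB1 was at 451.2 and 403.9 CPM with siCon and at 350.7 and 328.7 CPM with siPrdx2, again without overlap (-0.33 ± 0.10, adjusted p = 0.105). It passed when the spread was taken from all 8 libraries (-0.33, adjusted p = 0.0107), a fit in which 16.3% of all genes passed, and with the GC correction (-0.20, adjusted p = 0.048), where 17.5% did. It was -0.25 without SW480 siCon replicate 1 and -0.41 without replicate 2, in fits without any spread between siCon libraries. ITGAV was at 291.3 and 239.8 CPM with siCon and at 216.4 and 226.0 CPM with siPrdx2 (-0.26 ± 0.12, adjusted p = 0.215). Its change was -0.12 without SW480 siCon replicate 1, -0.40 without replicate 2 and -0.03 with the GC correction.

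As for ITGAV, the fitted value of the remaining members depended on which SW480 siCon library was used. LAMA5 was at 227.6 and 404.3 CPM with siCon and at 338.1 and 348.7 CPM with siPrdx2, so that both siPrdx2 libraries lay between the siCon libraries (0.12 ± 0.22, edgeR adjusted p = 0.758). Without SW480 siCon replicate 1 its change was -0.24 (adjusted p = 4.21e-05) and without replicate 2 it was 0.59 (adjusted p = 2.21e-14), and the GC correction gave -0.19 (adjusted p = 0.227). ITGB4 was at 180.4 and 234.0 CPM with siCon and at 241.1 and 255.1 CPM with siPrdx2 (0.26 ± 0.13, adjusted p = 0.265). Its change was 0.08 without replicate 1, 0.46 without replicate 2 and -0.04 with the GC correction. ITGA3 was at 320.0 and 395.9 CPM with siCon and at 327.8 and 343.1 CPM with siPrdx2 (-0.09 ± 0.12, adjusted p = 0.657). Its change was -0.24 without replicate 1 and 0.07 without replicate 2, and with the GC correction it was -0.35 (adjusted p = 0.0027). ITGB5 was at 295.1 and 351.5 CPM with siCon and at 328.2 and 325.7 CPM with siPrdx2, and ITGA6 at 455.0 and 385.0 CPM with siCon and at 385.1 and 364.5 CPM with siPrdx2. Their fitted changes were 0.02 ± 0.11 and -0.16 ± 0.11. For ITGB5 the change was -0.11 without SW480 siCon replicate 1 (adjusted p = 0.111), 0.15 without replicate 2 (adjusted p = 0.0156) and -0.12 with the GC correction. For ITGA6 it was -0.04 without replicate 1 (adjusted p = 0.575), -0.28 without replicate 2 (adjusted p = 3.15e-07) and -0.09 with the GC correction. Without SW480 siCon replicate 1, 4 of the 9 members passed, where 24.6% of all genes did, and without replicate 2, 7 of 9, where 52.8% did, in fits that take the spread from the remaining libraries. Both siPrdx2 libraries lay above both siCon libraries for 3 members, which 29.6% of all genes did, and below them for 2, which 29.1% did.

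**Figure D4:**
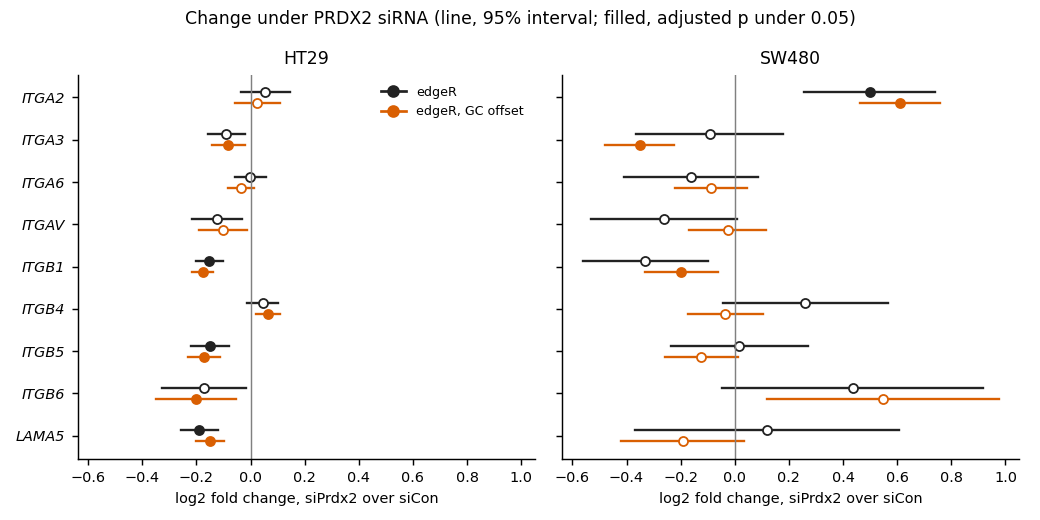
Log2 fold change of siPrdx2 over siCon (x axis) for the 9 genes in HT29 (left) and SW480 (right), with 95% intervals as lines. Black marks the edgeR fit and orange the fit with the GC correction, and filled points passed an adjusted p of 0.05. In HT29 the black points lie between -0.19 and 0.05, and in SW480 the intervals are wider and ITGA2 stands at 0.50.

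The change under PRDX2 siRNA was then compared between the lines, as the SW480 effect minus the HT29 effect in 1 fit over 8 libraries. No member passed in edgeR (0 of 9, 2 at an unadjusted p under 0.05), where 1.12% of 14772 genes did. The largest differences were those of ITGB6 (0.61 ± 0.20, 95% interval 0.17 to 1.04, adjusted p = 0.147) and ITGA2 (0.44 ± 0.10, 95% interval 0.22 to 0.67, adjusted p = 0.066). DESeq2 called 1 member, ITGA2 (0.45, adjusted p = 0.044), and 2.11% of all genes. With the GC correction, under which 7.12% of all genes passed, 3 members did: ITGA2 (0.59, adjusted p = 0.00041), ITGB6 (0.76, adjusted p = 0.0268) and ITGA3 (-0.26, adjusted p = 0.0202). For ITGB1, lower in both lines in the mean, the difference was -0.18 (95% interval -0.39 to 0.03). For LAMA5 it was 0.31 with an interval from -0.27 to 0.88, which leaves its sign unknown.

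Of 10 other laminin chains examined, 6 had enough counts to be tested in each line, of which 1 fell in SW480, where 2.08% of all genes passed lower. LAMC1, which joins LAMA5 in its trimers, went from 331.4 and 348.5 CPM in SW480 siCon to 195.8 and 205.8 CPM in SW480 siPrdx2 (-0.76 ± 0.10, edgeR adjusted p = 0.0092). The groups did not overlap, and the SW480 siCon duplicates lay close together. The change was between -0.66 and -0.80 in all alternatives run, but did not pass without SW480 siPrdx2 replicate 1 (-0.72, adjusted p = 0.212) or replicate 2 (-0.79, adjusted p = 0.124), or in limma without a mean-variance trend (adjusted p = 0.0723 and 0.103). In HT29 none of the 6 passed in edgeR (4 at an unadjusted p under 0.05), with LAMC1 at -0.16 ± 0.05 (adjusted p = 0.0501), which passed with RLE scaling (adjusted p = 0.0476), with the replicate block (adjusted p = 0.0204), with the GC correction (-0.20, adjusted p = 0.0057) and without HT29 siCon replicate 2 (-0.22, adjusted p = 0.0048). The LAMC1 change was larger in SW480, with a difference between lines of -0.60 (adjusted p = 0.026) that did not pass in limma (adjusted p = 0.0653 with a pseudocount of 1) or with any of the 4 HT29 or the 2 SW480 siPrdx2 libraries left out (adjusted p from 0.139 to 0.22). The beta chains that pair with LAMA5 did not pass in either line: LAMB1 had changes of 0.09 in HT29 and -0.11 in SW480, and LAMB2 of -0.14 and 0.24. In TPM, LAMA5 was 2.97 and 3.49 times LAMC1 in HT29 siCon, 0.473 and 0.799 times in SW480 siCon, and 1.19 and 1.17 times in SW480 siPrdx2. LAMA5 made up 84.4 and 86.0% of the alpha chain TPM in HT29 siCon and 61.9 and 73.9% in SW480 siCon, and nearly all of the rest was LAMA3.

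**Figure D5:**
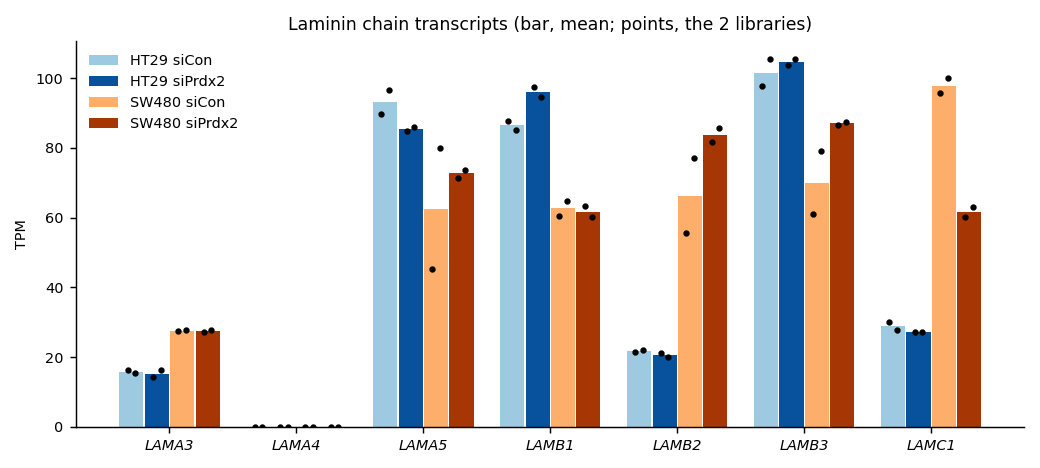
TPM (y axis) of 7 laminin chains (bars, mean; points, the 2 libraries) in the 4 groups. LAMC1 drops from 97.9 to 61.7 TPM in SW480, while LAMA4 is at or near 0 in all groups.

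Among the 18 other integrin subunits, 6 were tested in HT29, of which 1 rose, where 7.76% of all genes passed higher. It was the leukocyte chain ITGB7 (0.59 ± 0.19, edgeR adjusted p = 0.0437, mean level 5.08 CPM in siCon). In SW480, 11 were tested, of which none passed in edgeR (3 at an unadjusted p under 0.05), where 3.3% of all genes passed in either direction. Of 5 other laminin receptors, 3 fell in HT29, where 9.82% of all genes passed lower and 7.76% higher: BCAM, the Lutheran receptor of LAMA5 (-0.31), RPSA, which also encodes a ribosomal protein (-0.22), and DAG1, dystroglycan (-0.14). In SW480, 1 of 5 passed, as higher, where 1.22% of all genes passed higher. It was SDC4, a syndecan that acts with integrins at focal adhesions, which rose from 503.1 and 470.7 to 857.6 and 855.1 CPM (0.82 ± 0.09, edgeR adjusted p = 0.0043). None of the 4 hemidesmosome genes passed in SW480 in edgeR, where 3.3% of all genes passed in either direction. At an unadjusted p under 0.05 were 3 of them, with changes of 0.27 for DST, 0.34 for CD151 and 0.79 for COL17A1, and PLEC was at 0.33. In HT29, 2 of the 4 were lower, against 9.82% of all genes: CD151 (-0.11) and PLEC (-0.09, edgeR adjusted p = 0.0499). Neither passed in DESeq2.

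Of the matrix ligands and basement membrane genes, 3 of 16 tested were lower in SW480, against 2.08% of all genes: CTGF (-1.63) and CYR61 (-1.08), secreted proteins that bind integrins, and NID1, nidogen, which bridges laminin and collagen IV (-1.20). NID1 was listed at 0 in all HT29 libraries. In HT29, where 9.82% of all genes passed lower and 7.76% higher, 2 of 11 were lower and 1 was higher. The lower ones were AGRN, agrin (-0.29), and NPNT, nephronectin (-0.22), and the higher one was THBS1, thrombospondin (0.19). Of the cytoplasmic adaptors and kinases, 2 of 30 were lower in SW480, against 2.08% of all genes, and none was higher. The lower ones were FERMT2 (-0.62), 1 of the kindlins, which activate integrins, and LIMS1 (-0.52), an ILK partner. Another kindlin, FERMT1, was at -0.065 in SW480 (edgeR adjusted p = 0.733). In HT29, 5 of 28 adaptors and kinases were lower, against 9.82% of all genes, led by the tensins TNS1 (-0.33), TNS3 (-0.28) and TNS4 (-0.25). Another 3 were higher, against 7.76% of all genes: TES (0.26), SRC (0.20) and TLN1, talin (0.17). In the list of TGF-beta and latent TGF-beta binding protein genes, LTBP2 was lower in SW480 (-0.85, 1 of 8). In HT29, LTBP3 was lower (-0.32) and TGFB3 was higher (1.10), 1 of 7 in each direction, against 9.82 and 7.76% of all genes. TGFB3 averaged too few counts for the rule on named genes and was added after its value was seen. Of 9 list genes that the rule named in SW480, the epithelial keratin KRT18 (-0.37) among them, all passed also in DESeq2 and with the GC correction. In limma with a mean-variance trend, FERMT2, KRT18, LIMS1 and LTBP2 did not pass with either pseudocount. Without that trend, 8 did not pass with a pseudocount of 1 and all 9 with 0.1. FERMT2, KRT18, LAMC1, LIMS1 and LTBP2 did not pass with either siPrdx2 library left out. Of 22 named in HT29, 20 did not pass when the spread was taken from all 8 libraries. In DESeq2, 9 of them did not pass: CD151, CD68, CDX2, DAG1, ITGB7, NPNT, PLEC, THBS1 and TNS1. In limma with the trend, 8 or 9 did not pass (pseudocount 1 or 0.1), and without it all 22 did not.

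The genes most like each member across the 8 libraries, by Pearson's r of log2(CPM + 1) after each line was centred on its own mean, were found among 11803 genes. ITGA2 was most like SDC4 (r = 0.993) and ITGB1 most like OTUD4 (r = 0.999), and within the members the closest were ITGAV and ITGB1 (r = 0.905) and ITGB5 and LAMA5 (r = 0.882). Such values are descriptions, since many genes were alike at this level: 272 genes reached an r of 0.95 with ITGB1 and 86 with LAMA5. The part of the gap between the SW480 siCon duplicates in these values was not tested. ITGA3 (SREBF1, r = 0.981) and ITGB6 (r = 0.98) had only 15 and 16 genes at that level.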

How the data were processed

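Messenger RNA of 8 libraries was sequenced with a kit that does not mark strand. The authors aligned paired reads to hg19 with MapSplice and estimated counts per gene with RSEM on RefSeq mRNAs, steps their methods state for HT29. The deposited tables hold expected counts and TPM, with a weighted transcript length per gene. Here expected counts were rounded and tested with edgeR 4.0.16 (R 4.3.3): TMM scaling, a minimum of 10 counts in 2 or more libraries, quasi-likelihood test, Benjamini-Hochberg adjustment over all genes tested, threshold 0.05. Each line was fitted on its 4 libraries, and the difference between lines and the baseline on 8. CPM used TMM over 8 libraries, and values after ± are SE for fold changes and SD for levels.

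Alternatives were RLE scaling, no filter, DESeq2 1.42.0, limma 3.58.1 on TPM on the log2 scale with a pseudocount of 1 or 0.1, the replicate number as a block, a GC correction, 1 fit of all libraries, the 4 siCon libraries alone, and each library left out. The GC correction was a loess (span 0.5) of log2(CPM + 1) on the GC content of the longest transcript (GENCODE v44lift37), fitted over genes with a mean of at least 1 on that scale and used as an offset. GC content was found for 89.5% of the 25192 genes. Total counts of 8857442 to 10164137 set the precision, and the 3-count level covers counting error only. The edgeR steps were tested on simulated data. Promoter sequences are from RefSeq (GRCh38.p14), and gene positions are GRCh37.

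The 9 genes and the lists of partners, ligands and markers were chosen with earlier results of these data known. All 9 were named, and of each list at most 3 genes per line and direction, those with the largest change among genes that passed and averaged at least 5 CPM, plus LAMB1, LAMB2, LAMC1, the hemidesmosome genes and PRDX2. Other genes, such as ITGA1, ITGA5 and LAMA3, were named after their values were seen, and ADRM1 for its position. Some genes of these lists are not reported here.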

Additional observations from a re-analysis of the deposited data

Results flagged for a closer look

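The change under PRDX2 siRNA differed between the lines, in edgeR's test of the SW480 effect minus the HT29 effect, for 5 genes described above, none of them one of the 9 integrin and laminin genes. On the log2 scale the difference was -0.84 for PRDX2 (adjusted p = 0.0128), so that the targeted gene itself fell further in SW480. It was -0.60 for LAMC1 (adjusted p = 0.026), the gamma chain of the LAMA5 trimers. It was -1.52 for CTGF (adjusted p = 0.0124) and -1.23 for CYR61 (adjusted p = 0.0058), both integrin-binding matrix proteins. It was 0.77 for SDC4 (adjusted p = 0.0046). The part of the deeper PRDX2 loss in the other 4 differences was not tested.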

How the results depend on the processing

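In the baseline comparison 8 of the 9 members, without ITGA3, had the same direction under every alternative run, whereas the calls for the knockdowns depended on the fit. In HT29, where 2279 genes passed in the main analysis and 3 members did, DESeq2 called 871 genes and 1 fit of all libraries called 185, the latter with 0 members, as in limma (0 of 9 with either pseudocount). In SW480, where 466 genes and 1 member passed, the count was 214 or 177 with limma (pseudocount 1 or 0.1, 0 members), 2415 in 1 fit of all libraries (2 members), 2358 with the GC correction (3 members) and 0 members without the filter. For the difference between lines (166 genes, 0 members) it was 267 without the filter, 311 with DESeq2 (1 member), 103 or 43 with limma and 1002 with the GC correction (3 members). The GC correction called 6 members and 2612 genes in HT29.

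The limma fits used a mean-variance trend, which was turned on after the counts without it had been seen. Without the trend, an alternative chosen after seeing the data, limma called 26 or 3 genes in HT29, 12 or 2 in SW480 and 82 or 27 for the difference (pseudocount 1 or 0.1), with 0 members in each. In the baseline, limma without the trend called 5 members with pseudocount 0.1, where 10332 of 14772 genes passed. The share of passing genes that were higher was 44.1% in HT29 in the main analysis against 69.6% with trended limma, and 36.9% in SW480 against 58.9 and 60.5%. For the difference it was 45.2% against 57.3% with pseudocount 1, and in the baseline 53.3% against 41.4% with the GC correction.

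Some members changed sign. In HT29, ITGA6 was at 0.000 with RLE or DESeq2, 0.001 without the filter, 0.002 in 1 fit of all libraries and 0.066 or 0.067 with limma. In SW480, ITGA3 was at 0.006 with limma, and with the GC correction ITGB4 was at -0.035, ITGB5 at -0.124 and LAMA5 at -0.193. For the difference, ITGA3 was at 0.031 with limma, and ITGAV at 0.086, ITGB4 at -0.089 and LAMA5 at -0.034 with the GC correction, which put ITGA3 at -0.033 in the baseline. The cause was not tested.

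Replicate numbers gave no stated pairing, and same-numbered deviations correlated at 0.104 in HT29 and 0.126 in SW480, over 2 pairs. With the replicate number as a block, 5 members passed in HT29, where 2890 of 12961 genes did. In SW480, 1 member and 1727 of 14112 genes passed (49.7% of them higher, against 36.9%), and ITGA3 was at 0.003 for the difference. With the block and the GC correction together, 6 members passed in HT29, where 3094 of 12427 genes did. In SW480, 2 members and 2398 of 13496 genes passed, and for the difference 3 members and 973 of 14081 genes. That fit put ITGB4 at -0.035, ITGB5 at -0.123 and LAMA5 at -0.180 in SW480, ITGAV at 0.085, ITGB4 at -0.089 and LAMA5 at -0.020 for the difference, and ITGA3 at -0.033 in the baseline.

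With each library left out in turn, members passing ranged from 2 to 4 in HT29, 0 to 7 in SW480 and 0 to 8 for the difference, and genes passing from 87 to 7364 in SW480 and 6 to 5237 for the difference. The highest counts came without SW480 siCon replicate 2 (7364 and 5237) and then without SW480 siCon replicate 1 (3437 and 1371). In these fits ITGA6 in HT29 ran from -0.013 to 0.011. In SW480, ITGA3 ran from -0.242 to 0.066, ITGB5 from -0.107 to 0.146 and LAMA5 from -0.238 to 0.591. For the difference, ITGA3 ran from -0.152 to 0.170, ITGAV from -0.261 to 0.004 and LAMA5 from -0.049 to 0.796, and ITGA3 in the baseline from -0.058 to 0.262. A group left with 1 library was assumed to vary like the others in its fit. With 2 libraries a group and SW480 siCon duplicates that differ with GC content, calls of small SW480 changes depended on the fit.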
